A study of Homo sapiens with 12 samples.

Results

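The 4 arrays of the gastric carcinoma line AGS, 1 each for the solvent DMSO, Rhosin, JK136 and JK139, were taken by the line and the treatment in their titles from a series of 12 arrays. AGS is an established human stomach cancer line that grows as an adherent epithelial sheet. The same treatments were given to the stomach cancer lines MKN1 and SNU601, which serve here only to show where AGS differed. All cultures were grown in RPMI-1640 with fetal calf serum, and total RNA was hybridised to Affymetrix Human Gene 2.0 ST arrays. Rhosin is a small molecule that binds the GTPase RhoA and blocks its activation by exchange factors, and JK136 and JK139 are known from the labels by code name only. The labels give neither a dose nor an exposure time. Each treatment was measured once in AGS, so there are no replicates within the line and no error for a single difference. Nothing in the sources used here says whether the 4 cultures were handled together, so an effect of treatment and an effect of a single culture or array cannot be told apart.

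RhoA cycles between an inactive GDP-bound and an active GTP-bound form, and the active form drives actin fibres, cell contraction and entry of the cofactor MRTF into the nucleus, where MRTF acts with the serum response factor SRF. A separate input to SRF runs from growth factor receptors through RAS, RAF, MEK and ERK to ternary complex factors, and switches on immediate-early genes such as EGR1 and FOS within minutes, together with phosphatases that shut the pathway down again. Further programmes described below are the ATF4 response to amino acid shortage, the interferon response to viral nucleic acid, and the p53 response to DNA damage.

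The deposited values are log2 signals, and a difference of 1 is a change of 2-fold. For each gene, the level on an array was compared with the mean of the other 3 AGS arrays, and this quantity is called the difference below. A gene was counted as higher or lower on an array where its difference reached 1.5-fold, which is 0.585 on the log2 scale. The analysis covered 8930 genes whose mean over the 4 AGS arrays reached 4.52, the 40th percentile. At the edge of this fold, ANKRD16 lay just inside on the Rhosin array with −0.5858 and DGCR11 just outside with −0.5846.

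The label was checked against epithelial markers, which the other lines share in part. KRT18, a keratin of simple epithelia, had a mean level of 9.63 ± 0.04 (SD, n = 4 arrays), EPCAM, an epithelial adhesion molecule, 10.04 ± 0.06 and GATA6, a transcription factor of gut endoderm, 7.87 ± 0.28. Markers of differentiated gastric pit and gland cells were mostly under the filter level, with ANXA10 at 3.67, TFF2 at 3.68 and CLDN18 at 4.02, while TFF1 was measured at 6.75 ± 0.71. KRT18 was higher in MKN1 (10.75) and SNU601 (10.5), so it does not single out AGS. GATA6 stood at 6.84 in MKN1 and 8.05 in SNU601, EPCAM at 6.49 and 10.19, and CLDN18 at 3.76 and 9.52. EPCAM thus set AGS apart from MKN1 only, and CLDN18 from SNU601 only. Of the markers of other cells with a named cluster, 2 of 4 for leukocytes, 2 of 3 for fibroblasts and 3 of 5 for endothelium lay under the filter level, namely CD14 and TYROBP, DCN and LUM, and PECAM1, VWF and KDR. The others lay above it. LYZ, on the leukocyte list and also made by gastric epithelium, was high at 10.83 ± 0.50, and CD68, a lysosomal protein of macrophages, had 6.14 ± 0.30. THY1 of the fibroblast list had 4.63 ± 0.14, and ERG and CLDN5 of the endothelial list had 5.0 ± 0.18 and 5.53 ± 0.11. Their part in the results was not tested. In a bulk culture, fewer expressing cells and less RNA per cell cannot be told apart.

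The Rhosin and JK136 arrays differed from the rest of AGS in more genes than the DMSO and JK139 arrays did. With Rhosin 166 genes lay higher and 205 lower, together 371 genes or 4.15% of those tested. With JK136 150 lay higher and 166 lower, together 316 genes or 3.54%. The DMSO array differed in 70 genes (0.784%), with 35 higher and 35 lower (0.392% each). The JK139 array differed in 119 genes (1.33%), with 71 higher (0.795%) and 48 lower (0.538%). At 2-fold, 56 genes remained past the threshold with Rhosin and 58 with JK136, against 5 with DMSO and 5 with JK139. In MKN1, the same count at 1.5-fold ran from 44 to 70 genes per array, and in SNU601 from 44 to 99. The AGS counts for Rhosin and JK136 were more than 3 times as high as any of these, JK139 in AGS lay just above their range, and DMSO in AGS lay within it. All these counts use the genes kept by their mean in AGS, so genes expressed only in the other lines are left out. Of the 8930 genes, 8126 reached the filter level in both other lines. The part of this choice in the counts was not tested.

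**Figure D1:**
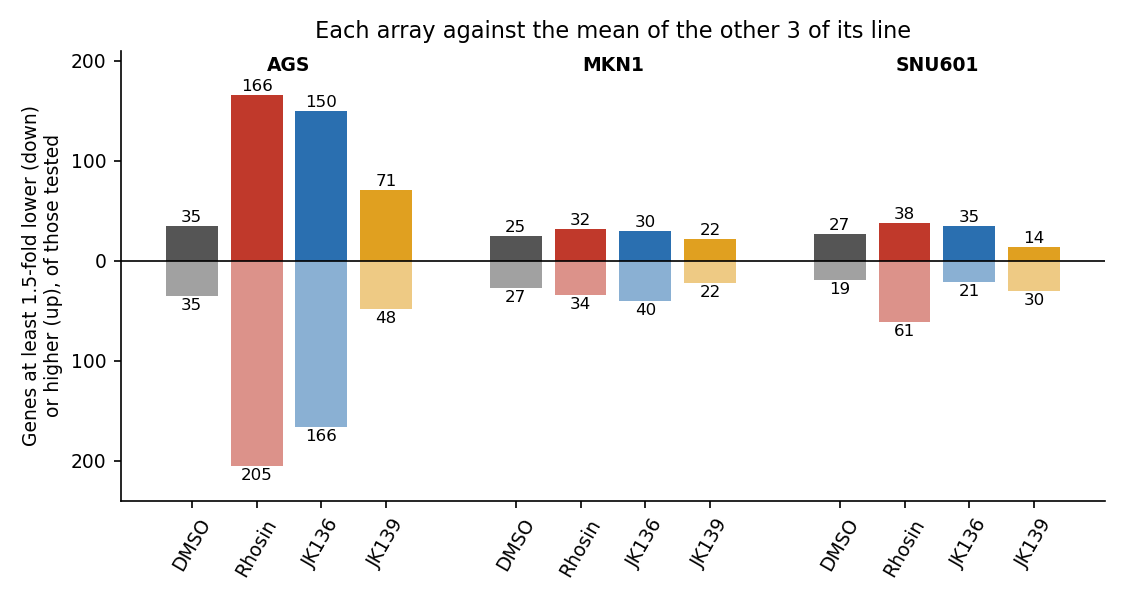
Number of genes at least 1.5-fold higher (bars up) or lower (bars down) on each array than the mean of the other 3 arrays of its line, for the 8930 genes tested, with 1 array per bar. The genes were kept by their mean in AGS for all 3 lines. Rhosin (166 higher, 205 lower) and JK136 (150 higher, 166 lower) in AGS have the longest bars of the 12 arrays.

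Compared pair by pair, JK136 and Rhosin were the most distant of the AGS treatments, with 695 genes at least 1.5-fold apart, 344 higher with JK136 and 351 higher with Rhosin. JK139 and DMSO were the closest, with 128 genes apart. Rhosin against DMSO and JK136 against DMSO each gave 378 genes. JK139 lay 501 genes from Rhosin and 370 from JK136. The 6 pairs of MKN1 arrays gave 122 to 167 genes and those of SNU601 108 to 195, so the distance between JK139 and DMSO in AGS fell within the range of pairs in the other lines and the distances that involved Rhosin or JK136 did not.

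For 2306 genes (25.8%), Rhosin and JK136 were the highest and the lowest of the 4 AGS arrays. Rhosin was the higher of them in 1192 of these genes and JK136 in 1114. DMSO and JK139 held both ends in 805 genes (9.01%). In MKN1 the Rhosin and JK136 arrays held both ends in 17.5% of genes and in SNU601 in 19.9%. The differences of Rhosin and JK136 share arrays, since each enters the reference of the other and both use DMSO and JK139. They are therefore given side by side below, with the level on all 4 arrays, and their opposite signs are not counted as separate findings.

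Immediate-early genes, the transcription factors and regulators that a growth factor or stress switches on without new protein synthesis, lay higher with Rhosin. Of the 21 measured here, 13 were at least 1.5-fold higher with Rhosin and 0 lower, where 1.86% of all genes were higher, and Rhosin was the highest array in 18 (28.8% of all genes). With JK136, 6 were lower and 0 higher, where 1.86% of all genes were lower. The list's median difference was −0.12 with DMSO, 0.61 with Rhosin, −0.24 with JK136 and −0.10 with JK139, against −0.01 for all genes with Rhosin. In MKN1 the list's median with Rhosin was 0.09 and in SNU601 also 0.09. Against the mean of DMSO and JK139 alone, the median was 0.59 for Rhosin and −0.13 for JK136.

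EGR1, a zinc finger transcription factor and the classical immediate-early target of ERK and SRF, had levels of 8.05 with DMSO, 9.72 with Rhosin, 7.06 with JK136 and 8.58 with JK139. Rhosin was the highest and JK136 the lowest, −2.66 from Rhosin, and DMSO and JK139 lay near each other between them. Its differences were 1.83 with Rhosin and −1.72 with JK136. A second probe cluster of EGR1 gave 1.17 and −0.93. IER2, a nuclear regulator of the same class, had 6.91, 7.58, 5.96 and 6.70 in the order DMSO, Rhosin, JK136, JK139. KLF2, a Krüppel-like factor, had 6.33, 7.24, 5.70 and 6.32 in that order. JUNB, an AP-1 subunit, had 7.17, 7.98, 6.67 and 7.10. All 3 genes repeated the order of EGR1 at its ends. FOSL1, an AP-1 subunit that accumulates under sustained ERK signalling, had 6.40, 7.59, 6.95 and 6.44, so that JK136 was the second highest array and not the lowest. FOS, the partner of JUN in AP-1, had 6.06, 6.95, 5.55 and 6.34, a difference of 0.97 with Rhosin, but its next probe cluster had −0.12, so the high value rests on 1 of its clusters. The same holds for FOSB, with 0.63 with Rhosin and 0.03 in its next probe cluster.

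The EGR1 promoter is shown because SRF sites were searched in the promoters of these genes. It comprises the 250 bases before the RefSeq start at chr5:138465229-138465478, plus strand, build GRCh38.p14, with matches to the CArG box, the motif that SRF binds, in capitals.
EGR1: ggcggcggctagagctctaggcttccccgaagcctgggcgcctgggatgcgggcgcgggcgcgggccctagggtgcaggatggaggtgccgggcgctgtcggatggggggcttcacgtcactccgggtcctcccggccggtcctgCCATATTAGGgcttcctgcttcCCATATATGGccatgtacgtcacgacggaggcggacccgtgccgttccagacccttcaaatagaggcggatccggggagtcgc
The matches start 105 and 83 bases before the start. A promoter sequence was at hand for 15 of the 21 immediate-early genes, and 2 of them, EGR1 and SRF, held a CArG box on either strand in this window (13.3%), against 1.42% of the 6917 promoters of genes tested and 1.44% of 27305 promoters in all. A match is a stretch of letters and was not measured as a binding site.

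The genes that feed back on MAP kinase signalling followed. Of 15 measured, 7 were higher and 1 lower with Rhosin, where 1.86% of all genes were higher and 2.3% lower. With JK136, 5 were lower and 2 higher, where 1.86% of all genes were lower and 1.68% higher. Rhosin and JK136 held both ends of the 4 arrays in 11 of the 15 (73.3%), against 25.8% of all genes. The medians were −0.15, 0.52, −0.48 and 0.00 in the order DMSO, Rhosin, JK136, JK139. Against DMSO and JK139 alone they were 0.46 for Rhosin and −0.15 for JK136. In MKN1 and SNU601, the Rhosin medians were −0.02 and −0.03.

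HBEGF, a growth factor that is shed from the membrane to activate the EGF receptor, had levels of 5.93 with DMSO, 7.04 with Rhosin, 5.47 with JK136 and 5.76 with JK139. Rhosin stood alone above the other arrays. ERRFI1, an inhibitor of that receptor, had 10.72, 11.38, 9.75 and 10.52 in the same order, with JK136 well below and Rhosin well above the rest. The dual-specificity phosphatase DUSP1, which acts on p38, JNK and ERK, had 6.57, 7.61, 6.40 and 6.51, a difference of 1.12 with Rhosin and −0.50 with JK136. DUSP6, which removes phosphate from ERK in the cytoplasm, had 7.94, 8.56, 7.36 and 8.27, and SPRY4, an inhibitor upstream of RAF, had 6.61, 7.29, 6.28 and 6.79. Both were highest with Rhosin and lowest with JK136. DUSP10, a phosphatase with a preference for p38 and JNK, ran the other way with 5.13, 4.65, 6.02 and 5.17, differences of −0.79 with Rhosin and 1.03 with JK136.

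Genes driven by ATF4, the transcription factor translated when amino acids run short, were split the same way. Of 20 measured, 9 were higher with Rhosin and 0 lower, and 8 were lower with JK136 and 0 higher, where 1.86% of all genes were higher with Rhosin and 1.86% lower with JK136. Rhosin was the highest array in 16 of the 20 (28.8% of all genes) and JK136 the lowest in 16 (31.4% of all genes). The medians were 0.17, 0.49, −0.50 and 0.00 in the order DMSO, Rhosin, JK136, JK139, and against DMSO and JK139 alone 0.31 for Rhosin and −0.44 for JK136. In MKN1 the medians were −0.01 for Rhosin and 0.17 for JK136, and in SNU601 0.05 and −0.14.

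DDIT4, an inhibitor of mTORC1, had levels of 8.70 with DMSO, 9.62 with Rhosin, 7.15 with JK136 and 8.12 with JK139. Its differences of 1.63 and −1.66 were the largest of the list in both directions. ATF5, a transcription factor of the same stress response, had 6.80, 7.53, 5.52 and 6.35. CTH, which makes cysteine from cystathionine, had 7.16, 7.66, 5.81 and 6.88. For both genes, JK136 lay further from DMSO than Rhosin did. TRIB3, a pseudokinase that feeds back on ATF4, had 5.41, 5.92, 4.19 and 5.22, with the JK136 value under the filter level. ASNS, asparagine synthetase, had 8.91, 9.14, 7.82 and 8.78, so that the low JK136 array set most of its spread. PCK2, the mitochondrial form of PEP carboxykinase, had 6.86, 7.45, 6.06 and 7.09. The transcript of ATF4 itself varied less, at 8.49, 8.53, 8.08 and 8.37.

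The promoter of ASNS is printed because its ATF4 element is a textbook example of the motif. It covers chr7:97872409-97872658, minus strand, in RefSeq's GRCh38.p14, 5′ to 3′, with the match to the ATF4 core TGATGNAA in capitals.
ASNS: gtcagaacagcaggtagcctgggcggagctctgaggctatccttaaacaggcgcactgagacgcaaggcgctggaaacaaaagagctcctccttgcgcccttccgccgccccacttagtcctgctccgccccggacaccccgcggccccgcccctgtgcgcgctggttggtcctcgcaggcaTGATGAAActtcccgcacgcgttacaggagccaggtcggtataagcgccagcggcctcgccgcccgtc
The match begins 68 bases before the start. On either strand, the core was found in 4 of the 17 ATF4 list promoters at hand (23.5%), those of ASNS, GARS1, AARS1 and JDP2, against 2.07% of the promoters of genes tested and 3.89% of all promoters.

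Interferon-induced genes made up the largest group with the opposite order, high with JK136 and low with Rhosin. Of 35 measured, 18 were higher with JK136 and 0 lower, and 18 were lower with Rhosin and 0 higher, where 1.68% of all genes were higher with JK136 and 2.3% lower with Rhosin. JK136 was the highest array in 28 (24.4% of all genes) and Rhosin the lowest in 24 (32.2% of all genes). The medians were −0.02, −0.66, 0.62 and −0.01 in the order DMSO, Rhosin, JK136, JK139. Against DMSO and JK139 alone the median was −0.40 for Rhosin and 0.41 for JK136. In MKN1 the medians were 0.05 for Rhosin and −0.07 for JK136, and in SNU601 −0.20 and 0.19.

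IFIT1, a protein that binds viral RNA caps, had levels of 6.80 with DMSO, 5.49 with Rhosin, 7.93 with JK136 and 6.48 with JK139. IFIT3, its partner, had 5.46, 4.32, 6.54 and 5.25 in that order, with the Rhosin value under the filter level. RSAD2 (viperin), an antiviral radical SAM enzyme, had 5.83, 4.89, 6.90 and 5.42. In each of the 3, Rhosin and JK136 lay on either side of DMSO by about 1 unit. IFI44, a cytoplasmic interferon-induced protein, had 5.79, 4.34, 6.72 and 5.67. IFI44L, its paralog, had 5.01, 3.54, 5.40 and 4.99. Here the low Rhosin array was further from DMSO than JK136 was, and IFI44L reached the filter only through its JK136 array. SAMD9, an antiviral and growth-restraining protein, had 6.44, 5.78, 8.04 and 6.98, and in it the high JK136 array dominated. BST2 (tetherin), which holds budding virus at the membrane, had 5.21, 4.28, 5.95 and 5.88, so JK139 was nearly as high as JK136. RIGI, a cytosolic RNA sensor, had 8.03, 7.76, 9.17 and 8.18. IFIH1, the related sensor MDA5, had 7.01, 6.29, 7.77 and 6.75. ISG15, a ubiquitin-like protein, had 7.53, 7.0, 8.39 and 7.42.

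The promoters of IFIT1 and RSAD2 are shown as members whose Rhosin and JK136 levels lay on either side of DMSO. Both are from RefSeq's GRCh38.p14 and the plus strand, at chr10:89392373-89392622 and chr2:6877527-6877776. Capitals mark matches to the core of the interferon-stimulated response element, searched on both strands.
IFIT1: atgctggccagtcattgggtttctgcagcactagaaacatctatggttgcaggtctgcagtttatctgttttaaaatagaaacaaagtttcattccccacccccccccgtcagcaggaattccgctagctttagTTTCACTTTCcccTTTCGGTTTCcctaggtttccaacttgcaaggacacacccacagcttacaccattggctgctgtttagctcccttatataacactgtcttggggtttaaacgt
RSAD2: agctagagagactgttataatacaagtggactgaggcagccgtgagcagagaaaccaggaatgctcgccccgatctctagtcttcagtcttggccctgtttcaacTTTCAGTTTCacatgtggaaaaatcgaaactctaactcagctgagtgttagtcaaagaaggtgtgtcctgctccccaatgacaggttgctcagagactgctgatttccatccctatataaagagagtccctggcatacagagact
IFIT1 held matches that start 116 and 103 bases before the start, and RSAD2 held 1 at 145 bases. Of the 28 interferon list promoters at hand, 17 held the core of this element (60.7%), against 2.95% of the promoters of genes tested and 3.71% of all promoters.

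**Figure D2:**
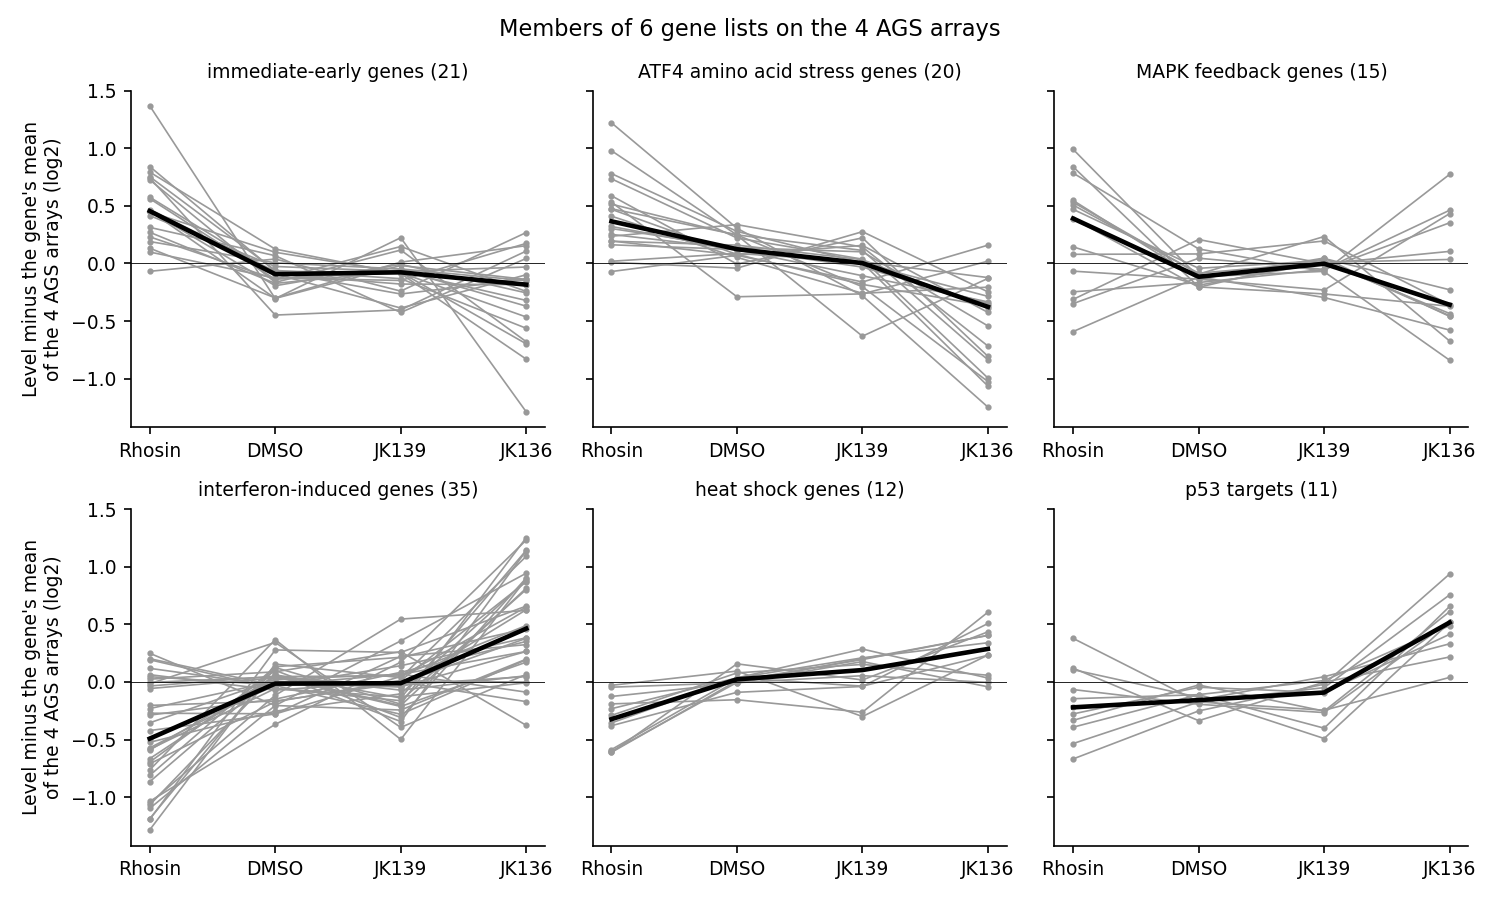
Levels of the members of 6 gene lists on the 4 AGS arrays, each gene shown as a grey line of its level minus its mean over the 4 arrays (log2), with the list median in black and the arrays ordered Rhosin, DMSO, JK139, JK136. The medians of immediate-early, MAPK feedback and ATF4 genes are higher at Rhosin than at JK136, and those of interferon-induced, heat shock and p53 genes are lower. Not every list is an even slope. Against DMSO and JK139, immediate-early genes have medians of 0.59 with Rhosin and −0.13 with JK136, and p53 targets −0.16 and 0.75. DNA replication and mitosis genes are not drawn.

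Heat shock genes, which code for chaperones under the factor HSF1, lay below the mean of the other arrays in all 12 measured with Rhosin, and 10 were lowest there, where 51.9% of all genes lay below and 32.2% were lowest. Of these, 4 passed 1.5-fold downward with Rhosin and 2 upward with JK136, against 2.3% and 1.68% of all genes. The medians were 0.03, −0.43, 0.38 and 0.14 in the order DMSO, Rhosin, JK136, JK139. With Rhosin the medians in MKN1 and SNU601 were −0.13 and −0.04, and with JK136 0.12 and 0.02, so both lines had the signs of AGS at a smaller size. HSPB1, the small chaperone HSP27, had levels of 8.75 with DMSO, 7.98 with Rhosin, 9.03 with JK136 and 8.61 with JK139. HSPH1, a nucleotide exchange factor for HSP70, had 8.88, 8.25, 9.27 and 9.06. The stress-inducible HSP70 genes HSPA1A, with 8.95, 8.36, 9.36 and 9.16, and HSPA1B, with 9.70, 9.07, 10.00 and 9.87, are near-identical copies whose probes may not separate them. In all 4 of these genes the low Rhosin array was the one that stood apart. In HSPB8, with 4.89, 4.85, 5.65 and 4.78, and HSPA4L, with 7.36, 7.07, 7.96 and 7.41, it was the high JK136 array. The heat shock element core GAANNTTC was present on either strand in 7 of the 12 promoters (58.3%), against 5.38% of the promoters of genes tested.

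Targets of p53 were high with JK136. Of 11 measured, 7 were higher with JK136 and 0 lower, and JK136 was the highest array in 10, where 1.68% of all genes were higher and 24.4% had JK136 as the highest array. With Rhosin, 2 were lower and 0 higher, against 2.3% of all genes lower. The medians were −0.21, −0.29, 0.69 and −0.12 in the order DMSO, Rhosin, JK136, JK139. Against DMSO and JK139 alone, JK136 had a median of 0.75 and Rhosin −0.16, so this list turned on the JK136 array. The JK136 medians in MKN1 and SNU601 were 0.03 and 0.05.

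TP53INP1, a regulator of p53-dependent death and autophagy, had levels of 6.85 with DMSO, 6.44 with Rhosin, 8.04 with JK136 and 7.09 with JK139. SESN1, a stress sensor upstream of mTORC1, had 6.48, 6.12, 7.41 and 6.60. RRM2B, a ribonucleotide reductase subunit for DNA repair, had 7.04, 7.0, 7.80 and 6.75. In each, JK136 stood above the other 3 arrays. These lay close together in RRM2B, while in TP53INP1 and SESN1 Rhosin was also low, with differences of −0.89 and −0.71. BAX, a pore-forming killer protein of mitochondria, had 7.96, 7.65, 8.60 and 7.73, and BBC3 (PUMA), which frees BAX, had 6.35, 6.59, 7.0 and 5.99. TIGAR, a phosphatase that slows glycolysis, had 6.51, 6.64, 7.23 and 6.44. GDF15, a secreted stress factor with both p53 and ATF4 inputs, kept no such order, with 10.07, 10.62, 10.28 and 10.00.

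Genes of DNA replication lay lower with Rhosin by small steps. In 24 of 25 members the Rhosin array lay below the mean of the others, and in 18 it was the lowest, while 3 passed 1.5-fold. Over all genes 51.9% lay below, 32.2% were lowest and 2.3% passed 1.5-fold downward. Housekeeping genes also lay low with Rhosin, 7 of 8 below and 6 lowest, with a median of −0.11 and 0 past 1.5-fold, and their part in the low replication genes was not tested. The median was −0.40 with Rhosin, and 0.17, 0.14 and 0.03 with DMSO, JK136 and JK139. Against DMSO and JK139 alone the median was −0.39 for Rhosin and 0.02 for JK136. In MKN1 and SNU601, the Rhosin medians were −0.01 and 0.04. GINS2, a subunit of the replicative helicase, had levels of 4.99 with DMSO, 4.22 with Rhosin, 4.97 with JK136 and 5.26 with JK139, near the filter level throughout. The G1/S cyclin CCNE2 had 6.31, 5.62, 6.52 and 6.16, and CCNE1 had 7.43, 6.70, 7.37 and 7.12. MCM6, a helicase ring subunit, had 7.55, 6.96, 7.42 and 7.60. For these 4 genes Rhosin was the lowest array and the other 3 lay close together. Of 31 genes of mitosis and the spindle, 26 lay below the other arrays with Rhosin and 20 were lowest there, against the same 51.9% and 32.2% of all genes, with a median of −0.22, but only HMMR, a spindle protein, passed 1.5-fold (−0.60).

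**Figure D3:**
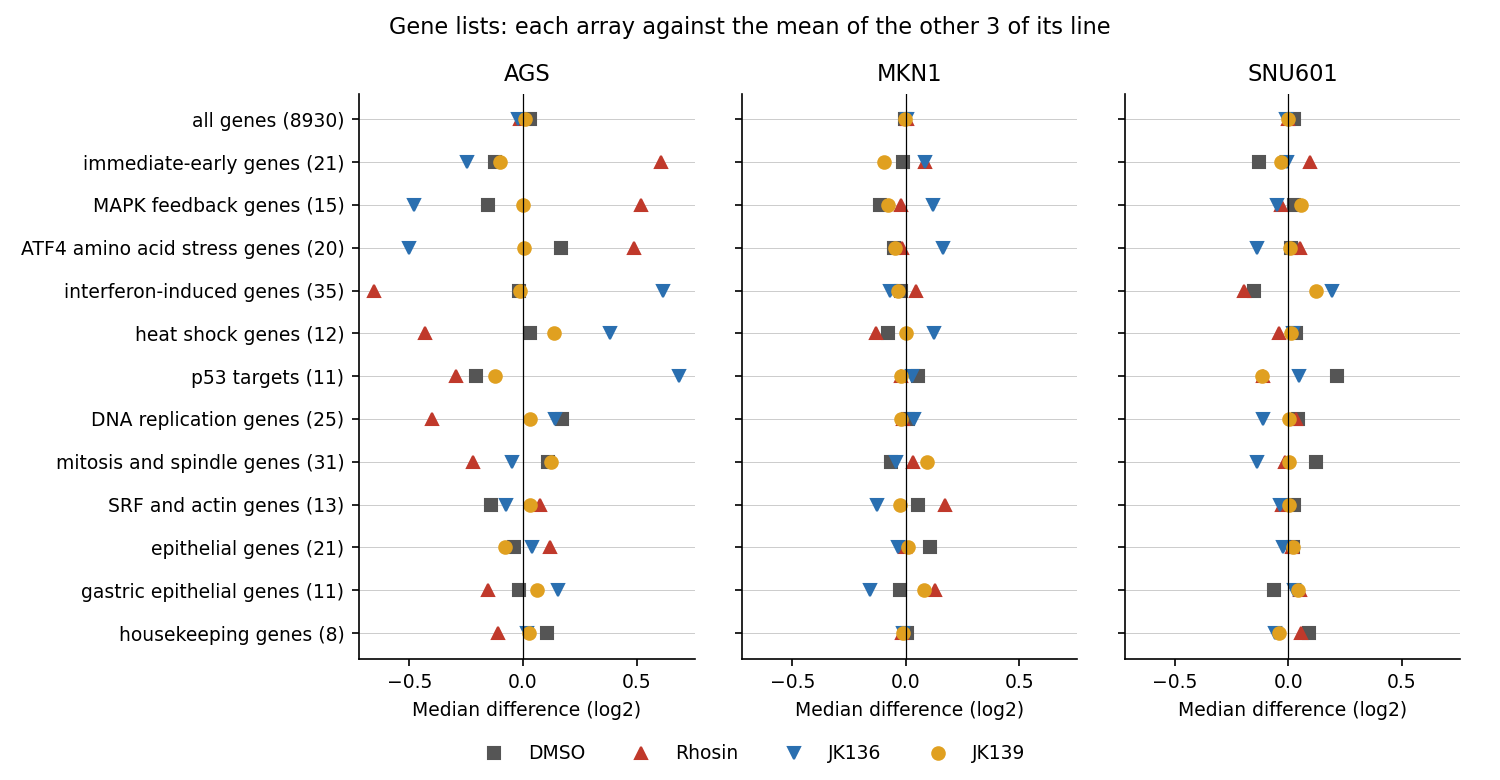
Median difference (log2, array minus the mean of the other 3 arrays of its line) of 12 gene lists and of all genes tested in AGS, MKN1 and SNU601, with 1 symbol per treatment. In AGS the Rhosin and JK136 medians lie at 0.61 and −0.24 for immediate-early genes and at −0.66 and 0.62 for interferon-induced genes, while for mitosis and spindle genes both are below 0 (−0.22 and −0.05). In MKN1 and SNU601 the Rhosin and JK136 medians lie between −0.20 and 0.19, and for SRF and actin genes those of MKN1 (0.17 and −0.13) are farther from 0 than those of AGS.

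Genes of the MRTF and SRF programme for actin gave 0 of 13 past 1.5-fold on any AGS array. Over all genes the share past it was 0.784% with DMSO, 4.15% with Rhosin, 3.54% with JK136 and 1.33% with JK139. At these shares, 0 of 13 does not set the list apart from all genes. The largest differences were 0.579 for FILIP1L and −0.548 for TPM1, both with JK136. DMSO was the lowest array in 8 of the 13 (15.4% of all genes). The medians of the list were −0.14, 0.07, −0.08 and 0.03 in the order DMSO, Rhosin, JK136, JK139. TAGLN, an actin-binding protein of smooth muscle, had 7.21, 7.43, 6.81 and 7.32, and FHL2, a LIM protein induced by RhoA signalling, had 7.65, 8.11, 7.69 and 7.72. Of 11 targets of the contact- and tension-sensitive cofactors YAP and TAZ, 1 was higher and 0 lower with Rhosin. With JK136, 1 was higher and 1 lower, and with DMSO 1 was lower. Over all genes 1.86% were higher with Rhosin, 1.68% higher and 1.86% lower with JK136, and 0.392% lower with DMSO. The medians were small, −0.113, −0.025, 0.101 and −0.065 in the same order. CCN2, a matricellular growth factor, was higher with Rhosin, at 8.81, 9.16, 8.24 and 8.63, and lower with JK136. AXL, a receptor tyrosine kinase, was higher with JK136, at 4.97, 5.13, 6.41 and 5.51.

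Single genes at the extremes of the Rhosin array were led by TMEM156, a membrane protein, with levels of 4.95 with DMSO, 7.06 with Rhosin, 3.77 with JK136 and 3.38 with JK139. The arrays with JK compounds lay under the filter level, so its difference of 3.03 rests in part on values near background. TMEM156 reached the filter only through its Rhosin array, so it is given as a description. MMP1, interstitial collagenase, had 5.94, 8.52, 6.77 and 6.83, high with Rhosin and low with DMSO. CEACAM5, an adhesion glycoprotein of gut epithelium and tumours, had 9.50, 10.45, 8.18 and 9.03. PIM1, a survival kinase, had 6.89, 8.14, 6.48 and 6.68, and UNC93A, a membrane transporter-like protein, had 6.0, 6.99, 4.67 and 5.83. In each of these Rhosin was the highest array. The Rhosin difference of CEACAM5 was also positive in SNU601 (0.71). At the low end, SOX2, a foregut and stem cell transcription factor, had 7.17, 5.26, 7.0 and 7.12, with Rhosin alone below 3 arrays that lay close together, −1.91 from DMSO. JAKMIP2-AS1, an antisense transcript, had a difference of −1.73 with Rhosin, and the probes' strand was not examined here.

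At the extremes of JK136, PSG2, a pregnancy-specific glycoprotein, had levels of 4.47 with DMSO, 3.20 with Rhosin, 6.68 with JK136 and 3.92 with JK139, and PSG6 of the same family had 4.52, 5.05, 6.97 and 5.59. The genes of this family are near-identical copies, so probes may be shared between them. PURPL, a long noncoding RNA induced by p53, had 5.08, 4.58, 7.39 and 5.07. ZSCAN4, a zinc finger gene of early embryo cells, had 4.72, 4.55, 6.43 and 4.50. For the last 2 genes, JK136 was the single high array and the other 3 lay close to the filter level. LINC03033, a noncoding transcript, had 7.79, 8.08, 5.11 and 7.02, a difference of −2.52 with JK136. NHSL1-AS1 had −1.75 and KIF21B, a kinesin motor, −1.40 with JK136, with KIF21B at 7.26, 7.76, 5.86 and 6.76.

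The microRNA gene MIR302C had levels of 3.67 with DMSO, 3.07 with Rhosin, 6.59 with JK136 and 5.54 with JK139. Its arrays fell into a low pair, DMSO and Rhosin, under the filter level, and a high pair with the JK compounds. MIR302D, a neighbour in the same miRNA cluster, had 4.05, 3.91, 5.35 and 4.97, the same pairing. Both genes reached the filter only through their JK136 array. The array measures RNA that matches the gene's probes, not the mature miRNA. The mature arms are shown because the 3′ arm carries the seed by which the miR-302 family, known from embryonic stem cells, finds its targets. Capitals mark bases 2 to 8, and the arms lie at chr4:112648366-112648388 and chr4:112648402-112648423, minus strand, in RefSeq's GRCh38.p14.
hsa-miR-302c-3p: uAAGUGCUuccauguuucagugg
hsa-miR-302c-5p: uUUAACAUggggguaccugcug

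DMSO and JK139, the arrays in the middle of most groups, differed from each other in few genes. NOX1, an NADPH oxidase of gut epithelium, was the exception at the top of JK139, with 4.75 with DMSO, 5.65 with Rhosin, 4.84 with JK136 and 6.98 with JK139. JK139 stood above all other arrays by more than 1 unit. THBS1, the matrix protein thrombospondin, had 6.60, 6.66, 6.82 and 7.62, and CEMIP, a hyaluronan-degrading protein, had a difference of 0.92 with JK139. DBN1, an actin-binding protein, had 0.96 and the zinc finger gene ZNF708 1.04. On the low side of JK139 were TMEM156 with −1.88, HKDC1, a hexokinase relative, with −1.08, RASGRP3, an activator of RAS, with −0.87 and STC2, a secreted stress glycoprotein, with −0.84. TMEM156 and STC2 reached the filter only through their Rhosin array, and DBN1 only through its JK139 array, so they are given as a description. The DMSO array was the lowest for MMP1 (−1.44), PSG6 (−1.35) and NOX1 (−1.07). It was the highest for SCARNA8, a guide RNA of Cajal bodies, which had 9.19, 7.76, 8.96 and 8.05. MIR302C had −1.39 with DMSO, but Rhosin was its lowest array. LINC03033 had 1.05 with DMSO, but Rhosin was its highest array, and its low JK136 array lay in the reference. PHC1, a Polycomb subunit, had 0.78 with DMSO, but −0.23 in its next probe cluster.

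**Figure D4:**
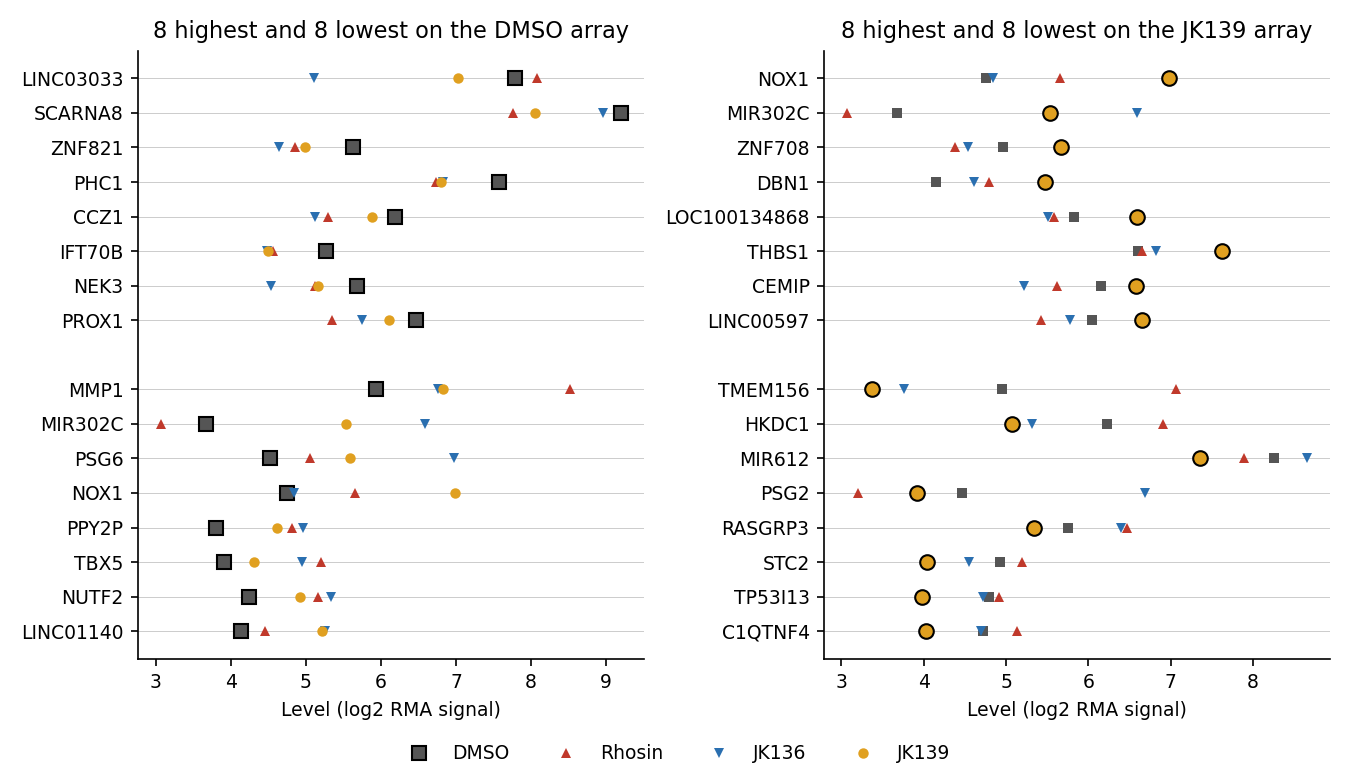
Levels (log2) on the 4 AGS arrays of the genes with the 8 highest and 8 lowest differences on the DMSO and on the JK139 array, with 1 point per array. NOX1 on the JK139 array (6.98, against 4.75 to 5.65 on the other 3) is the widest gap on the high side of JK139.

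Whether a difference in AGS was unlike that in the other lines was tested with limma over all 12 arrays. The test compared the AGS difference with the mean of the same difference in MKN1 and SNU601. Its error was the disagreement between those 2 lines, so the spread of AGS itself is not in it. After Benjamini-Hochberg adjustment over 8930 genes, limma called 15 genes (0.168%) for Rhosin, 8 with a higher (0.0896%) and 7 with a lower difference in AGS (0.0784%). For JK136 it called 18 genes (0.202%), 11 higher (0.123%) and 7 lower (0.0784%). It called 0 genes for DMSO and 0 for JK139, with 486 and 584 genes at an unadjusted p under 0.05. The lowest adjusted p-values there were 0.605 for DMSO and 0.0625 for JK139. For Rhosin and JK136, 1275 and 1093 genes had an unadjusted p under 0.05. The Rhosin and JK136 calls share arrays. PSG2 and MIR302C, called for both, reached the filter only through their JK136 array, so they are given as a description, and 13 calls for Rhosin and 16 for JK136 are left without them. Of all genes tested, 209 reached the filter only through their highest array.

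For JK136, the largest difference on the high side, among the 16 calls without PSG2 and MIR302C, was that of PURPL, 2.43 ± 0.19 (SE) above the other lines with an adjusted p of 0.0019 by limma. ZSCAN4 had 1.79 ± 0.16 and 0.00357. On the low side stood LINC03033 with −2.51 ± 0.19 and an adjusted p of 0.0019, DDIT4 with −1.91 ± 0.18 and 0.00522, and ATF5 with −1.62 ± 0.16 and 0.00654. These 5 genes were called in every alternative analysis in which they were tested. The other calls for JK136 were the interferon-induced genes SAMD9 and OASL, TP53INP1, the long noncoding RNA UCA1, AXL, the helicase-like gene DQX1 and TRANK1 on the high side, and the homeobox gene HOXB9, KIF21B, GPCPD1, a phosphodiesterase of glycerophosphocholine, and UNC93A on the low side. Of these, HOXB9 was called in 7 of 17 analyses and UNC93A in 10 of 16. The count for JK136 ran from 7 to 146 over the alternatives. It fell to 9 without MKN1 DMSO, MKN1 JK136 or SNU601 DMSO, and was 30 without MKN1 Rhosin and 36 without SNU601 Rhosin. As differences with no weight as calls, PSG2 stood 2.79 and MIR302C 2.70 above the other lines. PSG2, MIR302C, ZSCAN4, KIF21B and LINC03033 lay under the filter level in both other lines, and PURPL, DQX1 and UNC93A in 1 of them. For these 8 genes the test sets a change in AGS against a transcript at or near background elsewhere.

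For Rhosin, the differences of EGR1 (1.57 ± 0.22), HBEGF (1.5 ± 0.17), ATF5 (1.31 ± 0.16) and DDIT4 (1.30 ± 0.18) exceeded those of the other lines, each with an adjusted p of 0.0423 by limma. In MKN1 and SNU601, the Rhosin difference of EGR1 was 0.38 and 0.13, and that of HBEGF −0.28 and −0.09. UNC93A, HOXB9, KIF21B and ARHGAP29 were also called on the high side. SAMD9 (−1.4 ± 0.19), BST2 (−1.22 ± 0.16), TP53INP1 (−1.19 ± 0.16), ALCAM, an adhesion molecule, and SCARNA8 were called on the low side, beside PSG2 and MIR302C. The adjusted p of all 15 lay between 0.0423 and 0.0483, close under the threshold of 0.05. The count ran from 0 to 153 over the alternatives, and fell to 0 when MKN1 DMSO, MKN1 JK139, SNU601 DMSO or SNU601 JK139 was left out, so single genes called for Rhosin are not stable calls.

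**Figure D5:**
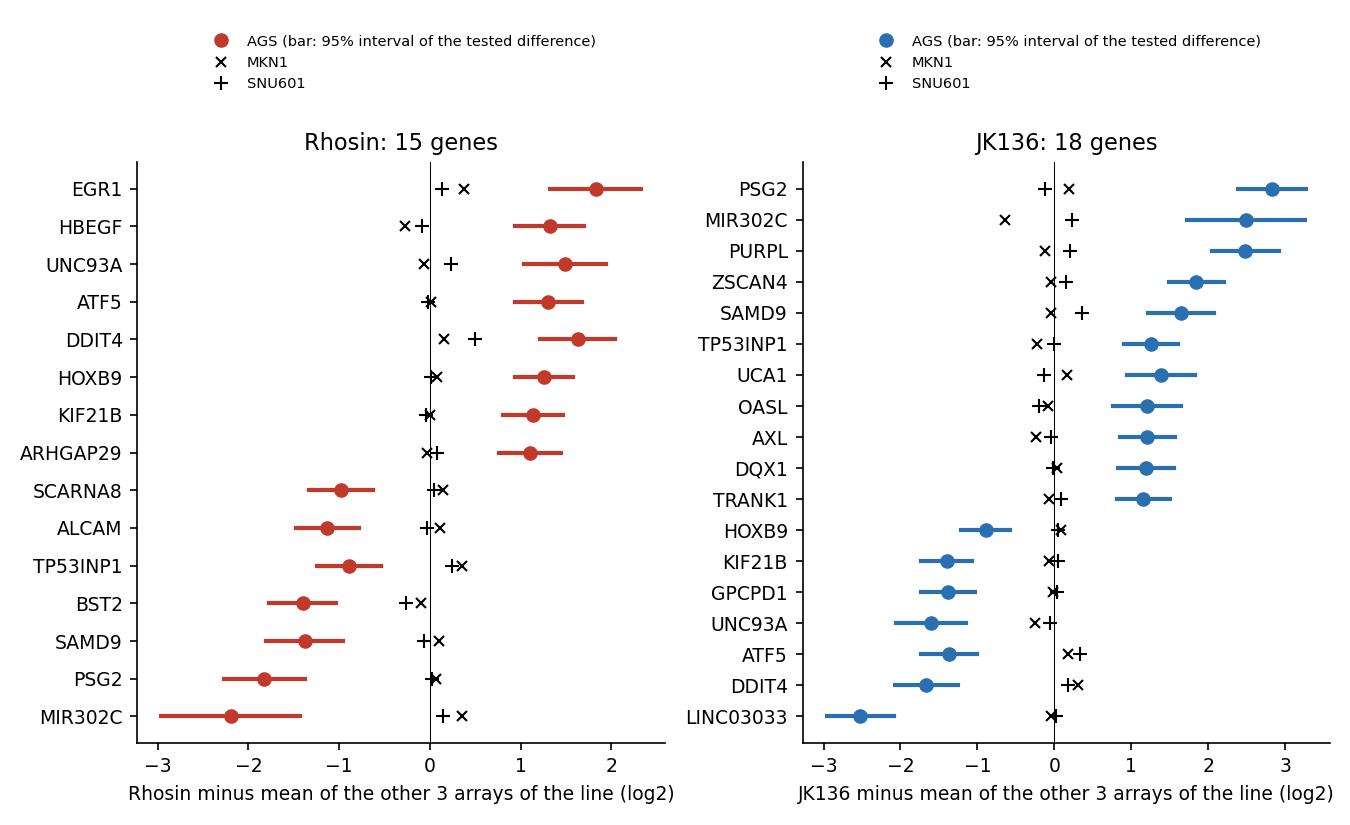
Difference (log2, array minus the mean of the other 3 arrays of its line) in AGS and, as × and +, in MKN1 and SNU601, for the 15 genes called by limma for Rhosin and the 18 for JK136, with bars for the confidence interval of the tested difference between AGS and the mean of the other lines. With JK136 the AGS points reach from −2.52 for LINC03033 to 2.82 for PSG2, and the mark of the other lines farthest from 0 is that of MIR302C in MKN1 (−0.65). With Rhosin the farthest is DDIT4 in SNU601 (0.495). PSG2 and MIR302C reached the filter only through their JK136 array and are drawn as a description.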

How the data were processed

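RNA from 12 cultures (3 lines, 4 treatments, 1 array each) was measured on Affymetrix Human Gene 2.0 ST arrays. The deposited values are log2 signals, summarised by robust multi-array average (RMA) with Affymetrix Expression Console, per the submitters' processing notes. RMA subtracts background, forces all arrays to a common distribution and reduces each cluster's probes to a single value, which compresses changes of dim transcripts. The table held 53617 clusters with values from 0.286 to 13.0 and array medians from 4.14 to 4.20. Versions, annotation release and genome build are not given in the sources used here. A symbol was at hand for 16098 clusters (30.0%), and the others were not analysed here.

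For each of 14884 symbols the cluster brightest on average over 12 arrays was used, and genes were kept at or above the 40th percentile of the AGS mean, which left 8930. Of these, 8126 also reached that level in MKN1 and SNU601. Differences and list medians were computed with numpy 2.4.6 in Python 3.11.15 and have no test. Contrasts of AGS with the other lines were fitted with limma 3.58.1 in R 4.3.3 over 12 arrays, with a term for each AGS array and shared treatment terms for MKN1 and SNU601 (3 residual degrees of freedom, prior degrees of freedom 5.71, prior SD 0.121), and called at a Benjamini-Hochberg adjusted p under 0.05. The fitting code was tested on simulated data. The number of arrays limits the precision, and the confidence interval of a tested difference reached a median of 0.38 on each side of it. These p-values measure only the spread between single arrays of MKN1 and SNU601.

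Genes were named by rule: the 8 highest and 8 lowest on each AGS array, up to 5 called genes in each direction of a contrast, up to 6 members of each list by size, and cell type markers. Further list members and called genes named in the text were picked after their values were seen. 1 gene list and the single genes the rule named with it are not reported here. The members and the gene lists were chosen with earlier results of these data known. Promoters and miRNA sequences are RefSeq's (GRCh38.p14), matched by symbol. The alternatives covered normalization, filter, cluster choice, reference, fold, prior variance and leaving out each array of the other lines.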

Additional observations from a re-analysis of the deposited data

Results flagged for a closer look

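For 33 combinations of gene and treatment, the difference in AGS was unlike the mean difference in MKN1 and SNU601 by limma's test, as described above, and their values follow as AGS minus that mean on the log2 scale. With 1 array in each group, an outlying array within a group was not sought.

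With Rhosin, AGS lay above the other lines by 1.57 for EGR1, 1.5 for HBEGF, 1.40 for UNC93A, 1.31 for ATF5, 1.30 for DDIT4, 1.21 for HOXB9, 1.15 for KIF21B and 1.08 for ARHGAP29. It lay below them for SCARNA8 (−1.07), ALCAM (−1.17), TP53INP1 (−1.19), BST2 (−1.22), SAMD9 (−1.4), PSG2 (−1.87) and MIR302C (−2.44).

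With JK136, AGS lay above the other lines by 2.79 for PSG2, 2.70 for MIR302C, 2.43 for PURPL, 1.79 for ZSCAN4, 1.49 for SAMD9, 1.37 for TP53INP1, 1.37 for UCA1, 1.35 for OASL, 1.34 for AXL, 1.18 for DQX1 and 1.15 for TRANK1. It lay below them for HOXB9 (−0.96), KIF21B (−1.38), GPCPD1 (−1.39), UNC93A (−1.45), ATF5 (−1.62), DDIT4 (−1.91) and LINC03033 (−2.51). Of the 24 genes in these lists, 5 were under the filter level in both other lines and 3 in 1 of them, and PSG2 and MIR302C reached the filter in AGS only through the JK136 array.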

How the results depend on the processing

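No paired analysis was possible because each group had 1 array and all carry the same replicate number, which gives no block. Treatments were compared within each line in every fit. The counts past 1.5-fold were within 1.5 times of those reported under quantile normalization, median centring, a filter on the mean of 12 arrays, every cluster on its own and the median as reference. In the order DMSO, Rhosin, JK136, JK139 they were 245, 646, 599 and 303 without a filter, 23, 247, 195 and 49 with a filter at the 60th percentile, and 5, 56, 58 and 5 at 2-fold. Against JK139 alone, DMSO gave 128. The order of Rhosin and JK136 above JK139 and DMSO held in all 3 of those settings. The limma count for Rhosin was 23 with median centring, 1 without a filter, 94 with the stricter filter, 0 with the filter on 12 arrays, 0 with every cluster on its own, 153 with a trended and robust prior, 24 over genes measured in all 3 lines, 0 against DMSO alone, and 0 to 34 without 1 array of the other lines (34 without SNU601 Rhosin, 1 without MKN1 Rhosin). For JK136 it was 7 without a filter, 70 with the stricter filter, 11 with the filter on 12 arrays, 146 with the other prior, 38 over genes measured in all 3 lines, 8 against DMSO alone and 9 to 36 without 1 array (9 without MKN1 DMSO, MKN1 JK136 or SNU601 DMSO, 30 without MKN1 Rhosin, 36 without SNU601 Rhosin). For JK139 it was 0 to 2 (2 without MKN1 Rhosin). Of single called genes over the alternatives, 313 values stayed past the threshold and 221 did not, with the direction kept.

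List medians moved by less than the spread between MKN1 and SNU601 (SD 0.082) in 749 of their values and by more in 57. With every cluster on its own, immediate-early genes had −0.50 with JK136, and heat shock genes −0.65 with Rhosin, 0.48 with JK136 and 0.24 with JK139. In that setting the near-identical HSP70 genes enter again through further clusters. The second cluster of HSPA1A repeats the first (−0.80 with Rhosin), and that of HSPA1B has −0.83 beside −0.78. MAPK feedback genes had 0.42 with Rhosin and −0.39 with JK136, both without a filter and with the filter on 12 arrays. Under these 2 filters interferon-induced genes had −0.52 and −0.56 with Rhosin, and 0.51 with JK136 in each case. Against DMSO and JK139 alone, JK136 medians were −0.13 for immediate-early, −0.15 for MAPK feedback, 0.41 for interferon-induced, 0.27 for heat shock, 0.022 for DNA replication and −0.13 for mitosis genes, and Rhosin medians −0.40 for interferon-induced genes, 0.31 for ATF4 genes and −0.16 for p53 targets. These references and the filter on all 3 lines were chosen after seeing the data. In their next brightest cluster FOS with Rhosin (−0.12) and PHC1 with DMSO (−0.23) reversed. Where filters, references or left-out arrays changed a value, the cause was not tested.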

Other observations

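Targets of NRF2, the transcription factor of the antioxidant response, lay low with JK139. Of 10 measured, JK139 was the lowest array in 9 (21.1% of all genes), with a median difference of −0.27, against 0.01 for all genes, and −0.24 from DMSO. TXNRD1, thioredoxin reductase, had levels of 7.04 with DMSO, 7.15 with Rhosin, 6.98 with JK136 and 6.53 with JK139. SRXN1, which repairs oxidised peroxiredoxins, had 6.43, 6.42, 6.40 and 5.99, and TKT, transketolase, had 8.46, 8.46, 8.48 and 8.11. In each the 3 other arrays lay close together and JK139 below them. HMOX1, heme oxygenase, was the only member past 1.5-fold, with −0.63 with JK139 and 1.11 with JK136. The medians of the list with JK139 in MKN1 and SNU601 were 0.03 and −0.05. Genes of mitosis and the spindle lay above the mean of the other arrays with JK139 in 27 of 31 (51.7% of all genes), with a median of 0.12. JK139 was the highest array in 14 (23.2% of all genes). The DMSO array gave nearly the same, with 25 of 31 above (57.6% of all genes), 11 highest (23.6%) and a median of 0.11. From DMSO to JK139 the median was only 0.013, and the low Rhosin array (−0.22) is in the reference of both.

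The following genes were picked after their values were seen. DKK1, a secreted Wnt inhibitor, had 8.18 with DMSO, 7.18 with Rhosin, 9.24 with JK136 and 8.04 with JK139, and CD24, a mucin-like surface glycoprotein, had 9.15, 8.43, 9.99 and 9.04. TFF1, a gastric mucosal peptide, was low with JK136 at 7.24, 7.40, 5.86 and 6.50. EGFR, the EGF receptor, was high with Rhosin alone at 8.18, 9.03, 8.29 and 8.08, and VEGFA, an angiogenic factor, was low with JK136 alone at 8.21, 8.11, 7.15 and 8.01. The chemokine CXCL11, an interferon target, was high with JK136 at 4.54, 4.59, 5.64 and 4.21, and reached the filter only through that array. Of the stress sensors of the endoplasmic reticulum, ERN1 (IRE1) had 5.69, 6.58, 5.03 and 5.55, whereas the chaperone CALR had 10.76, 10.32, 11.34 and 10.96, the reverse order. TIPARP, a mono-ADP-ribosyltransferase and target of the aryl hydrocarbon receptor, had a Rhosin difference of 1.06 in AGS, 0.66 in MKN1 and 0.45 in SNU601, so all 3 lines had the same sign.

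Of 313 genes with a second cluster, 42 had the same values in both on all 12 arrays and were left out. Of the other 271, 15 were past 1.5-fold with Rhosin and 12 of them had the same direction in their second cluster, 7 of them past 1.5-fold. With JK136 the counts were 8, 7 and 3. A second cluster is not a replicate culture.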
